A study of Mus musculus with 3 samples.

Results

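Extracellular metalloproteases cut the matrix around a cell and release proteins from its surface. The set described here holds the matrix metalloproteases (Mmp), the membrane-anchored disintegrin and metalloproteases (Adam), their secreted thrombospondin-motif relatives (Adamts), the Adamts-like proteins (Adamtsl), which keep the binding domains without a protease domain, and the inhibitors Timp1 to Timp4 and Reck. Members were taken by gene symbol from the array annotation, which gave 85 of 37074 gene names. The rule itself uses no measured value. Each gene was read from its brightest probe without an outlier flag.

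Most matrix metalloproteases are made as inactive proenzymes whose propeptide blocks a catalytic zinc, and furin or plasmin can remove that propeptide. The tissue inhibitors (Timp proteins) bind the active site, with Timp3 held in the matrix and able to inhibit Adam and Adamts proteases too, while Reck is a membrane-bound inhibitor. In the kidney these enzymes turn over basement membrane and interstitial matrix and shed growth factor precursors from tubular cells.

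The cells were mpkDCT, a mouse line of the distal convoluted tubule of the kidney, and those of all 3 groups carried a CRISPR-Cas9 knockout of Cyp27b1, the enzyme that turns calcidiol into calcitriol. Each group had 1 array: calcitriol at 1e-07 M, calcidiol at 1e-07 M, and vehicle, all for 24 h. The medium had no phenol red and contained 2% charcoal-stripped serum, for 24 h before treatment and throughout it. Calcitriol, the hormone that binds the vitamin D receptor with high affinity, has a hydroxyl group on its A ring that calcidiol, its precursor, lacks. The sources used here do not say whether the knockout line was 1 clone, and there was no array of cells with an intact Cyp27b1. The titles also carry the tag siCT, which the labels do not explain, and 1 free-text label writes calcidiol with an extra hydroxyl group, against its treatment tag, which was followed here.

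With 1 array per group there is no replicate check, so no test was run and no p-value is given. A level is the scanner's processed signal, in arbitrary units of brightness, and a difference is on the log2 scale after each array's 75th percentile was subtracted. A difference is given only for a probe that stood well above background on the pair of arrays compared. The error printed after ± is the scanner's technical error, which leaves out the spread between cultures. For bright probes this error was 0.20 whatever the gene, so it is not a spread measured for each gene. The error had a median of 0.21 over the members measured in calcitriol against vehicle. Levels of different genes come from different probes and are not compared. In RNA from a whole culture, fewer cells of a type and less RNA per cell cannot be told apart.

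The arrays were alike in signal, with 49.9%, 49.7% and 51.0% of spots well above background for calcitriol, calcidiol and vehicle. Detected is used here for well above background. Cyp27b1 itself was not detected on any array (7.05 with calcitriol, 3.82 with calcidiol and 2.91 with vehicle), and all groups carry the edit, so this probe does not check the labels. Of 7 kidney epithelial markers, Cdh16, Pax8 and Pax2 were well above background on all 3 arrays, whereas Cdh1, Epcam, Krt8 and Krt18 were not on any. Of 5 distal convoluted tubule markers only Wnk4 was well above background on every array, and the defining cotransporter gene Slc12a3 was on none. Spots near the array edge behaved differently: among genes read from the outermost 6 rows and columns, 3.58% were at least 2-fold lower with calcitriol than with vehicle, against 1.42% of the genes read elsewhere. At least 2-fold higher with calcidiol than with vehicle were 2.8% against 0.644%. At least 2-fold lower with calcitriol than with calcidiol were 4.92% against 1.04%. The opposite directions of the 3 comparisons gave 1.41% against 0.92%, 0.186% against 0.139% and 0.384% against 0.475%, in the same order.

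A minority of these genes gave a clear signal on these arrays. Of the 85 genes, 81 had a probe without an outlier flag, and Adam21, Adam29, Mmp27 and Reck had none. The signal was well above background for 29 genes with calcitriol, 29 with calcidiol and 30 with vehicle, and for 28 on all 3 arrays. These 28 are 34.6% of the 81 genes, where the share over all genes was 45.0%. On single arrays the share over all genes was 46.9%, 47.0% and 47.8% for calcitriol, calcidiol and vehicle. A further 4 genes passed on some arrays, which were Mmp9 with calcitriol, Adamts12 with calcidiol, and Mmp17 and Adam5 with vehicle. The other 49 were not well above background by their brightest probe, which does not show that they are silent.

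**Figure D1:**
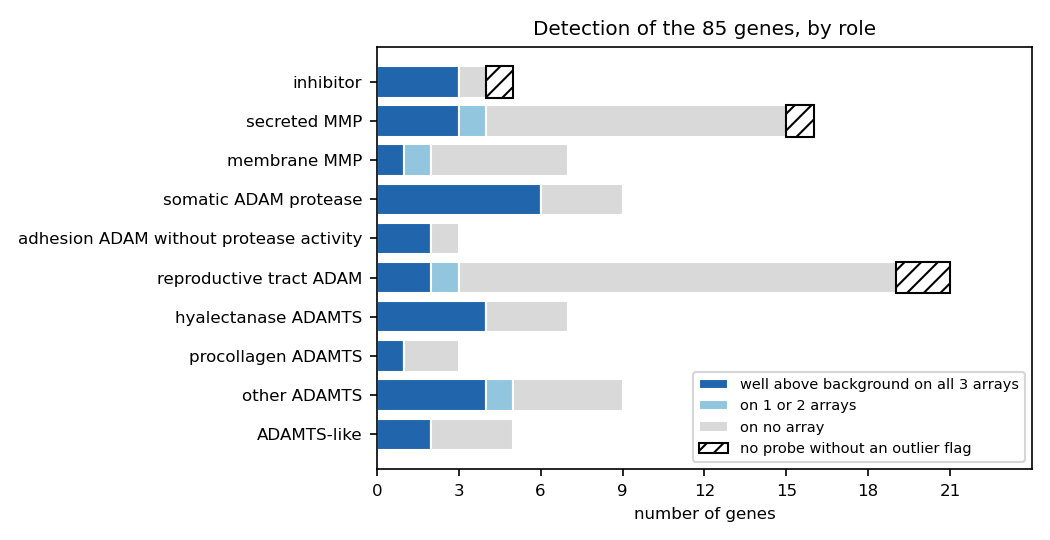
Number of genes in each functional group (horizontal axis) that were well above background on all 3 arrays, on some arrays or on none, with genes that had no unflagged probe hatched. Somatic Adam proteases (6 of 9) and versican-cleaving Adamts proteases (4 of 7) were mostly detected, secreted Mmp genes (3 of 15) and Adam genes of the reproductive tract (2 of 19) mostly not.

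The inhibitors and the somatic Adam proteases were mostly detected and the Mmp genes mostly not. Among inhibitors, 3 of the 4 with an unflagged probe were well above background on all arrays. The Mmp family had 4 of 22, the Adam family 10 of 31, the Adamts family 9 of 19 and the Adamts-like group 2 of 5. The 9 Mmp genes of the chromosome 9 cluster with an unflagged probe, which are the collagenase genes Mmp13, Mmp8, Mmp1a and Mmp1b, the stromelysin genes Mmp3 and Mmp10, and Mmp7, Mmp12 and Mmp20, were read by 13 probes between positions 7282762 and 7699535 of mm9. None of these probes was well above background on any array, and their highest signals were 15.3 with calcitriol, 7.13 with calcidiol and 7.80 with vehicle. Mmp2 (gelatinase A) and Mmp14 (a membrane-type activator of Mmp2) were not well above background either, nor were Mmp16, Mmp21, Mmp23, Mmp24 and Mmp25. The undetected Adam proteases of body tissues were Adam12, Adam19 and Adam28, with the adhesion gene Adam23. The other Adam genes, mostly of testis and epididymis, comprised Adam1b, Adam2, Adam3, Adam4, Adam6a, Adam6b, Adam7, Adam18, Adam20, Adam24, Adam25, Adam26a, Adam30, Adam32, Adam34 and Adam39. The Adamts and Adamts-like genes undetected by any probe were Adamts2, Adamts3, Adamts8, Adamts13, Adamts15, Adamts17, Adamts19, Adamts20, Adamtsl1, Adamtsl2 and Adamtsl3. Adamts18 was undetected by its brightest probe and detected with calcidiol by another. Of 5 testis markers, Ddx4, Prm1, Prm2 and Acr were not detected on any array, and Tnp1 was detected with vehicle only (10.72 with calcitriol, 11.24 with calcidiol and 16.50 with vehicle).

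Of the genes at least 2-fold apart between calcitriol and vehicle, described next, promoter sequence is shown for the 3 found in the RefSeq table, Adamts14, Adamtsl5 and Adamtsl4. The vitamin D receptor is known to bind, with its partner the retinoid X receptor, pairs of hexamers spaced by 3 bases. The windows below are the 250 bases before the transcription start in RefSeq (GRCm38.p6, all on the minus strand, written 5′ to 3′ along the gene), with capitals marking the hexamer AGGTCA, the hexamer GGGTCA, the hexamer AGTTCA or the hexamer GGTTCA on either strand. They lie at chr10:61273420-61273669 for Adamts14, chr10:80348449-80348698 for Adamtsl5 and chr3:95687918-95688167 for Adamtsl4.
Adamts14: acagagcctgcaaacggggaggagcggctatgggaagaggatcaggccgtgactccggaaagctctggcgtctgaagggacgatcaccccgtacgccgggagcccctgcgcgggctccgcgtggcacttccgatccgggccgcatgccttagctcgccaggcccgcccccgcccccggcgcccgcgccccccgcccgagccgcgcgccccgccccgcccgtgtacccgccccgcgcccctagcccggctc
Adamtsl5: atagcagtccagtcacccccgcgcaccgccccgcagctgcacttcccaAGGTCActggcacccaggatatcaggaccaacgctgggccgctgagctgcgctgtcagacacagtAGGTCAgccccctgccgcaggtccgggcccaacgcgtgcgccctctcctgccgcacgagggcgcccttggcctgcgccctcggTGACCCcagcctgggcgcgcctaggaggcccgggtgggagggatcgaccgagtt
Adamtsl4: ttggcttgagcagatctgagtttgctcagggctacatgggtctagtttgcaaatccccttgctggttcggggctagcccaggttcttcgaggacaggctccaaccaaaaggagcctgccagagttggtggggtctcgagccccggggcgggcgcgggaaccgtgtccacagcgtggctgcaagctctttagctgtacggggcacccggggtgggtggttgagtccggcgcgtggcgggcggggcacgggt
The Adamtsl5 window held 3 such hexamers, at -202 and -137 on the plus strand of the gene and at -54 on the other strand, counted from the start site to the first base of the hexamer. The Adamts14 and Adamtsl4 windows held none. At least 1 hexamer was present in 38.6% of all 32851 promoters and in 19 of the 59 promoters matched to 54 of the genes, and 3 or more in 1.84% of all promoters and in 2 of the 59. A direct repeat of any pair of these hexamers with a 3-base spacer, such as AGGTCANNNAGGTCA, was found in 0.0396% of all promoters and in none of the 59. These matches describe letters in a short window and say nothing about binding.

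Calcitriol against vehicle asks how cells without Cyp27b1 respond to the active hormone. Of the 28 measured genes, 3 passed 2-fold upward with calcitriol (Adamts6, Adamts14 and Adamtsl5) and 1 passed it downward (Adamtsl4). Over all 16671 measured genes, the share past 2-fold was 0.966% upward and 1.63% downward, or 1.34% and 1.1% when the array median was the centre. At 1.5-fold, 6 of the 28 were higher, with Adamts1, Adamts9 and Adamts7 added, and 5 were lower, with Adamts16, Adam22, Mmp15 and Adam26b added. The shares over all genes were 3.38% and 6.26%. The median difference of the 28 was -0.15 (all genes, -0.00465), with 8 above and 20 below 0. Over all genes 49.2% were above 0.

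Calcidiol against vehicle asks the same of the precursor in cells that cannot convert it through this enzyme. None of the 28 was at least 2-fold higher, where the share over all genes was 0.852%, and none at least 2-fold lower, where it was 0.144%. At 1.5-fold, Mmp19 and Adam33 were higher and Mmp15 was lower, with shares over all genes of 2.84% and 1.33%. The median was -0.02 (all genes, -0.00961), with 10 genes above and 18 below 0. Over all genes 47.7% were above 0. This comparison and the one before share the vehicle array.

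Calcitriol against calcidiol compares the hydroxylated hormone with its precursor at the same dose and time. Adamts6 was at least 2-fold higher with calcitriol (0.466% of all genes were) and Mmp19 at least 2-fold lower (1.4% of all genes), and with the array median as the centre both shares were 0.805%. At 1.5-fold, Adamts14 and Adamts7 joined Adamts6, while Adam26b, Adamtsl4 and Adam33 joined Mmp19. The shares over all genes were 2.16% and 5.55%. The median was -0.11 (all genes, 0.00347), with 8 above and 20 below 0. Over all genes 50.6% were above 0.

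**Figure D2:**
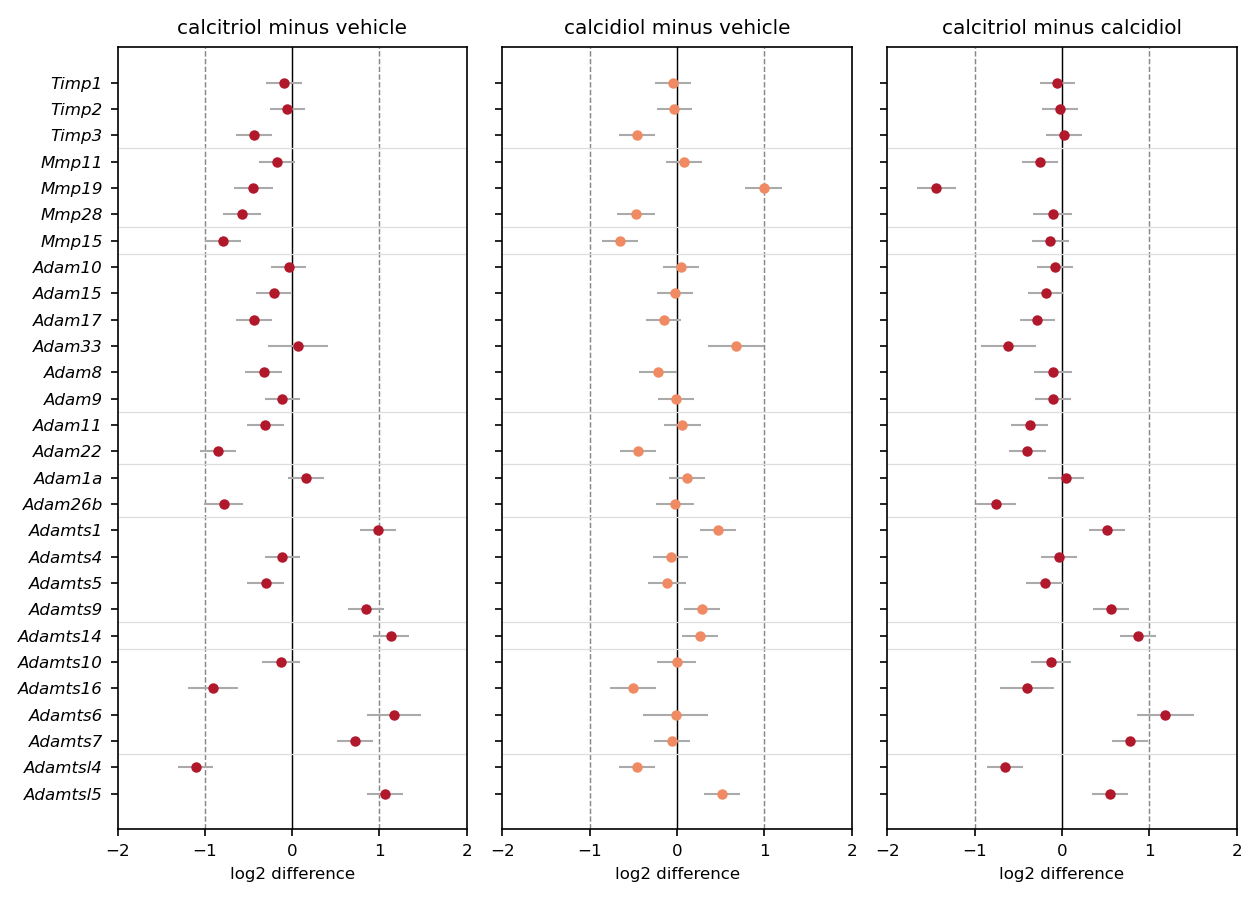
Log2 difference (horizontal axes) of the 28 genes measured on all arrays, for calcitriol minus vehicle, calcidiol minus vehicle and calcitriol minus calcidiol, grouped by role, with bars showing the scanner's technical error and dashed lines at 2-fold. The Adamts genes in the left panel spread between -0.91 for Adamts16 and 1.17 for Adamts6, and no gene crosses a dashed line in the middle panel.

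Among the inhibitors, Timp1 and Timp2 were level across the arrays by their brightest probes, and Timp3 was lower with both compounds. Timp1 had signals of 3231 with calcitriol, 3535 with calcidiol and 3377 with vehicle. Timp2 had 25811 with calcitriol, 27706 with calcidiol and 26201 with vehicle. After scaling, the differences of both genes by these probes lay between -0.10 and -0.02 in the 3 comparisons, within the technical error of 0.20.

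Timp3, the matrix-bound inhibitor, had 1521 with calcitriol, 1583 with calcidiol and 2014 with vehicle. It was thus lower with calcitriol and calcidiol than with vehicle, by -0.44 ± 0.20 and -0.46 ± 0.20, and these compounds differed by 0.02. A second Timp3 probe gave -0.46 and -0.27. A second Timp2 probe did not give level values, with -0.55 for calcitriol against vehicle, 0.06 for calcidiol against vehicle and -0.61 for calcitriol against calcidiol. It lay in the outermost row or column, and the part of that position was not tested. Timp4 was not well above background by any of its probes. The single Reck probe carried an outlier flag for its local background on the calcidiol array and is given only as a value: 300.3 with calcitriol, 310.8 with calcidiol and 381.1 with vehicle.

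Of the secreted matrix metalloproteases, Mmp11, Mmp19 and Mmp28 were measured. Mmp19, which cleaves basement membrane components, had 54.3 with calcitriol, 155 with calcidiol and 72.3 with vehicle. Calcidiol was thus highest, 0.99 ± 0.21 above vehicle (1.99-fold), and calcitriol minus calcidiol was -1.44 ± 0.22 (2.71-fold lower). Its other probe was not detected on any array. Mmp11 (stromelysin-3, activated inside the cell by furin) had 1115 with calcitriol, 1404 with calcidiol and 1232 with vehicle, with differences between -0.25 and 0.08. Mmp28 (epilysin) had 81.8 with calcitriol, 92.9 with calcidiol and 119 with vehicle, lower with either compound by -0.58 and -0.47.

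Mmp9, or gelatinase B, appeared only at the edge of detection. Its chosen probe gave 26.8 with calcitriol, 11.9 with calcidiol and 9.66 with vehicle, and was well above background only with calcitriol, which puts calcitriol at least 1.96-fold above vehicle. For such a bound, the dim array is set to its probe's own value or, if higher, to that array's lowest detected signal. The other Mmp9 probe gave 28.5, 22.3 and 2.88 and was well above background with both compounds, at least 2.09-fold above vehicle for calcitriol and at least 1.55-fold for calcidiol. The probes thus share the order of the groups and differ on whether calcidiol is detected. By chosen probes, bounds of at least 2-fold higher for calcitriol against vehicle were reached by 6.97% of the 1134 genes well above background on 1 of those arrays. Mmp9, at 1.96-fold by its chosen probe, is not among them.

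Among membrane-type enzymes, Mmp15 had 122 with calcitriol, 142 with calcidiol and 206 with vehicle. The calcitriol and calcidiol arrays lay together below vehicle, by -0.79 ± 0.21 and -0.65 ± 0.21. Mmp17, which is tethered by a lipid anchor, was well above background only with vehicle (11.3, 15.1 and 21.0 for calcitriol, calcidiol and vehicle), at least 1.55-fold below it with calcitriol.

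**Figure D3:**
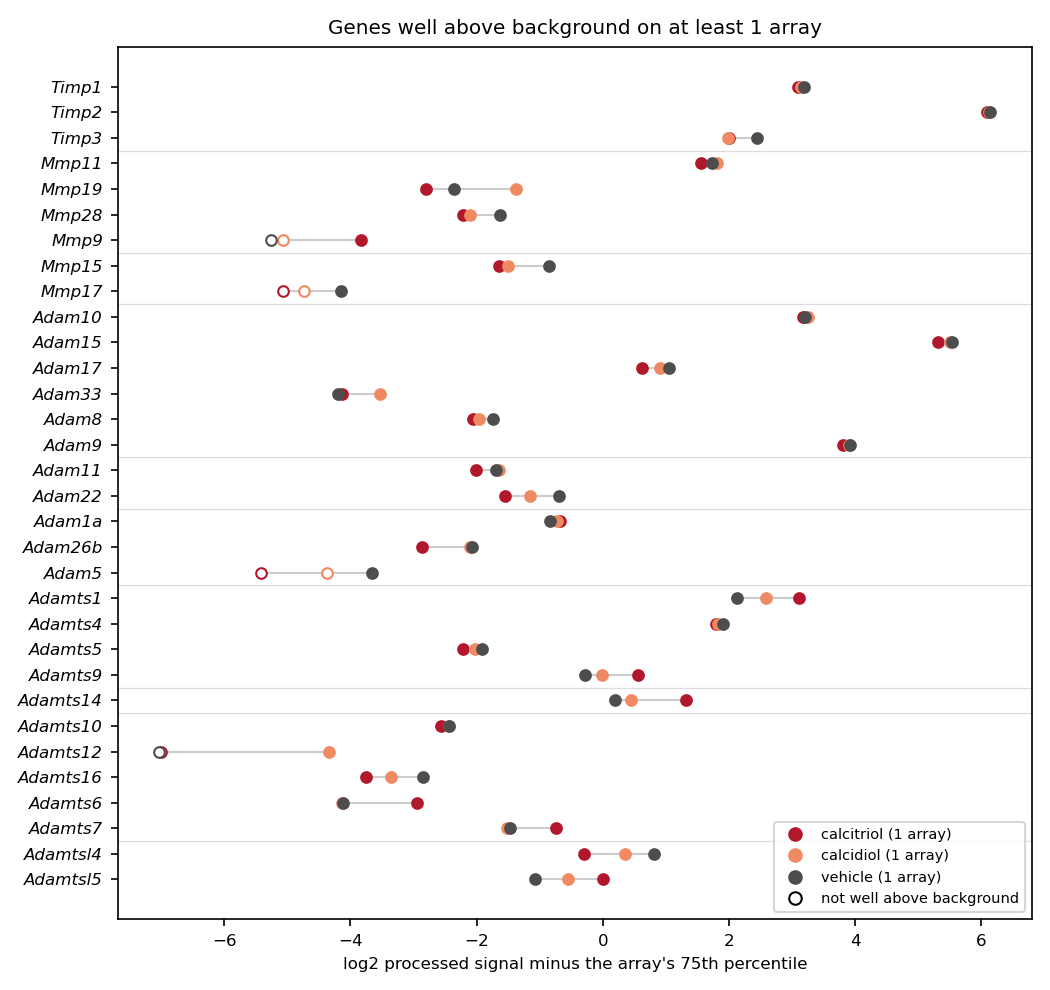
Processed signal on a log2 scale, relative to each array's 75th percentile (horizontal axis), for every gene well above background on at least 1 array, with 1 point per array and open points where the signal was not well above background. Adamts1, Adamts9, Adamts14 and Adamtsl5 are highest with calcitriol, then calcidiol, then vehicle, Adamtsl4 and Adam22 run the other way, and Adam9 and Adam10 have 3 points almost on top of each other.

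By their chosen probes, the somatic Adam proteases, which shed ligands and receptors, differed little between the arrays, apart from Adam17, Adam33 and, less so, Adam8. Adam10, the main Notch sheddase, had 3412 with calcitriol, 3814 with calcidiol and 3428 with vehicle. Adam9 had 5283, 5977 and 5581, and Adam15 had 15141, 18207 and 17136, in the same order of groups. By the chosen probes, no difference of these 3 genes exceeded 0.21 in size, about the technical error. A second Adam15 probe was at -0.35 ± 0.20 for calcitriol against vehicle and also against calcidiol, and the remaining probe at -0.08 and 0.06. A dimmer second Adam10 probe was at -0.27 ± 0.23 with calcitriol and -0.28 ± 0.23 with calcidiol, against vehicle. Adam17, which releases tumour necrosis factor and epidermal growth factor receptor ligands, had 583 with calcitriol, 748 with calcidiol and 771 with vehicle. Calcitriol was thus lower by -0.44 ± 0.20 and calcidiol by -0.16 ± 0.20. The other Adam17 probes gave -0.17 and -0.50 with calcitriol, and -0.22 and -0.42 with calcidiol, in the same order of probes. Adam8 had 90.9 with calcitriol, 103 with calcidiol and 111 with vehicle, which is -0.32 ± 0.21 and -0.22 ± 0.21 against vehicle. The dim Adam33 had 21.6, 34.8 and 20.2, highest with calcidiol by 0.68 ± 0.32 over vehicle.

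Adam11 and Adam22 lack protease activity and act in cell adhesion. Adam22 had 130 with calcitriol, 181 with calcidiol and 229 with vehicle, lower with calcitriol by -0.85 ± 0.21 and with calcidiol by -0.45 ± 0.21. Adam11 gave opposite directions from different probes for calcitriol against vehicle, -0.31 from the chosen probe and 0.48 from the other, so no direction is given. Of the Adam genes best known from testis and sperm, Adam1a was level (238, 243 and 208 for calcitriol, calcidiol and vehicle). Adam26b had 52.4 with calcitriol, 93.5 with calcidiol and 88.1 with vehicle, so calcitriol alone was low, by -0.78 ± 0.22 against vehicle and -0.76 ± 0.23 against calcidiol. Adam5 was well above background only with vehicle (8.85, 19.4 and 29.3), at least 2.17-fold below it with calcitriol. Such a bound of at least 2-fold lower was reached by 9.52% of the genes detected on 1 of those arrays.

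The Adamts proteases held both higher and lower genes. Over the 9 measured genes the median difference was 0.72 for calcitriol against vehicle, -0.02 for calcidiol against vehicle and 0.52 for calcitriol against calcidiol. With calcitriol against vehicle 5 of the 9 were above 0 and 4 below, so the family did not move one way. Under the 10 other settings tried, the first of these medians lay between 0.35 and 0.84 and the calcidiol median between -0.08 and 0.26, on both sides of 0.

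Adamts1, 4, 5 and 9 cleave versican and aggrecan. Adamts1 (probe on chromosome 16, 85795044 to 85795103 of mm9) had 3276 with calcitriol, 2418 with calcidiol and 1622 with vehicle. Both compounds were above vehicle, calcitriol by 0.98 ± 0.20 (1.97-fold) and calcidiol by 0.47 ± 0.20. Its single probe lay in row or column 4 from the edge, and the part of that position was not tested. Adamts9 (chromosome 6, 92722729 to 92722788) had 558 with calcitriol, 399 with calcidiol and 304 with vehicle, 0.84 ± 0.20 higher with calcitriol and 0.28 ± 0.21 with calcidiol. Its other 3 probes were also higher with calcitriol than with vehicle, by 0.30, 0.47 and 1.01. Adamts5, the neighbour of Adamts1 on chromosome 16, did not share its direction. It had 81.6 with calcitriol, 98.4 with calcidiol and 98.5 with vehicle, and Adamts4 had 1313, 1421 and 1385. The chosen Adamts4 probe was at -0.11 ± 0.20 for calcitriol against vehicle, and its other 2 probes were at -0.59 ± 0.21 and -0.25 ± 0.21, so the probes share the direction and differ in size.

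Adamts14 trims the amino-terminal propeptide of fibrillar procollagen. Its probe (chromosome 10, 60659860 to 60659919 of mm9) had 946 with calcitriol, 546 with calcidiol and 422 with vehicle. Calcitriol was 1.13 ± 0.20 above vehicle (2.19-fold) and 0.87 ± 0.20 above calcidiol, while calcidiol stood 0.26 ± 0.20 above vehicle. A second probe had 259 with calcitriol, 162 with calcidiol and 90.0 with vehicle, in the same order, and gave 1.49, 0.75 and 0.74 for the same comparisons. Under all 10 other settings of the processing Adamts14 stayed at least 2-fold higher with calcitriol than with vehicle, between 1.03 and 1.31. Some of these settings only changed which spots or genes were kept and repeated the value of 1.13. The related procollagen proteases Adamts2 and Adamts3 were not well above background.

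Adamts6 and Adamts10 are close relatives linked to fibrillin microfibrils. Adamts6 (chromosome 13, 105286124 to 105286183 of mm9) had 49.3 with calcitriol, 22.9 with calcidiol and 21.4 with vehicle. Calcidiol and vehicle were level (-0.02 ± 0.37), and calcitriol stood 1.17 ± 0.31 above vehicle (2.24-fold) and 1.18 ± 0.33 above calcidiol (2.27-fold). Its other 2 probes were well above background only with calcitriol, at least 2.60-fold and at least 1.85-fold above vehicle. The signals are close to background: with an offset of 32 added to every signal the difference from vehicle was 0.59, and with another background correction (normexp) it was 0.35. Adamts10 was level, at 64.3 with calcitriol, 73.8 with calcidiol and 68.7 with vehicle.

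Adamts7, which cleaves cartilage oligomeric matrix protein, had 226 with calcitriol, 139 with calcidiol and 134 with vehicle. Again calcitriol alone was high, by 0.72 ± 0.21 over vehicle and 0.78 ± 0.21 over calcidiol. Adamts16 ran the other way, at 28.2 with calcitriol, 39.3 with calcidiol and 51.7 with vehicle, which is -0.91 ± 0.29 and -0.51 ± 0.27 against vehicle. Its probe lay in row or column 6 from the edge.

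**Figure D4:**
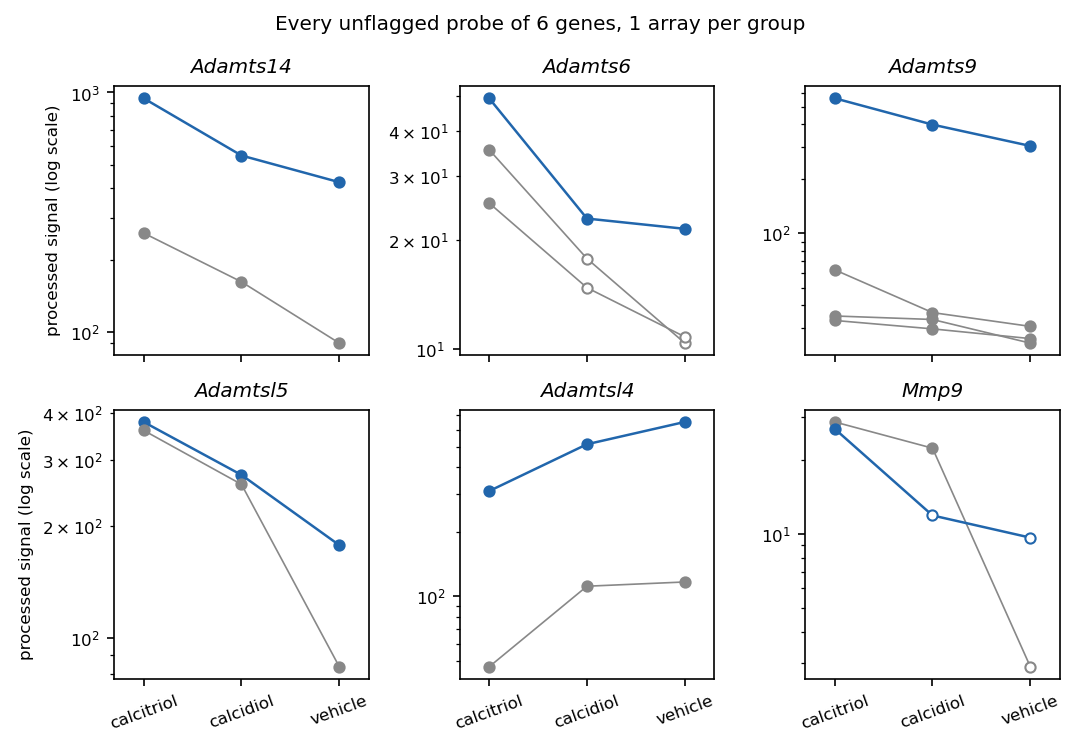
Processed signal on a log axis (vertical) for every unflagged probe of 6 genes on the calcitriol, calcidiol and vehicle arrays, with the chosen probe in blue, other probes in grey and open points where the signal was not well above background; only the slope of a line, not its height, can be set beside another. All probes of Adamts14, Adamts6, Adamts9 and Adamtsl5 are higher with calcitriol than with vehicle, and both Adamtsl4 probes are lower.

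The Adamts-like proteins bind fibrillin and other matrix proteins without cutting them, and the measured members differed from vehicle in opposite directions. Adamtsl5 (chromosome 10, 79805571 to 79805630 of mm9), whose promoter window held the 3 hexamers, had 379 with calcitriol, 273 with calcidiol and 177 with vehicle. It was 1.06 ± 0.21 above vehicle with calcitriol (2.09-fold) and 0.51 ± 0.21 with calcidiol. A second probe had 360 with calcitriol, 258 with calcidiol and 83.6 with vehicle, which is 2.07 and 1.51 above vehicle, so the probes share the order and differ in size. The distance between calcitriol and calcidiol was 0.55 ± 0.21 by the chosen probe and 0.56 by the other.

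Adamtsl4, known in humans for lens dislocation when mutated, was read on chromosome 3 (95480135 to 95480194 of mm9). It had 310 with calcitriol, 513 with calcidiol and 652 with vehicle. Calcitriol was lowest, at -1.11 ± 0.20 against vehicle (2.15-fold lower) and -0.65 ± 0.20 against calcidiol, with calcidiol at -0.46 ± 0.20. A second probe had 46.8 with calcitriol, 111 with calcidiol and 117 with vehicle, giving -1.35, -1.17 and -0.18 for those comparisons. The low level with calcitriol thus appears in both probes, whereas the calcidiol difference is within the technical error in the second.

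Of the 28 genes, 13 had a further measured probe. All probes of a gene pointed the same way for 11 of the 13 with calcitriol against vehicle, for 8 with calcidiol against vehicle and for 8 with calcitriol against calcidiol.

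Other genes of the same system were read from a list of 60 activators, inhibitors, cofactors, sheddase regulators and substrates, of which 38 were well above background on all arrays. For calcitriol against vehicle, 1 of 39 measured genes was at least 2-fold higher and 6 were at least 2-fold lower, beside the shares over all genes of 0.966% and 1.63%. For calcidiol against vehicle none of 39 reached 2-fold in either direction, nor did any of 38 for calcitriol against calcidiol. The shares over all genes were 0.852% higher and 0.144% lower in the first of these, and 0.466% and 1.4% in the second.

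The higher gene was Fbn1, the fibrillin that Adamts6 and the Adamts-like proteins associate with. It had 66.0 with calcitriol, 39.1 with calcidiol and 21.6 with vehicle. That is 1.58 ± 0.28 above vehicle with calcitriol and 0.75 ± 0.31 with calcidiol. The vehicle signal is close to the lowest called well above background on that array (13.36), and no other Fbn1 probe was measured. The plasminogen activator genes Plat and Plau were at -0.71 and -0.57 with calcitriol, and plasminogen itself (Plg) was not well above background. Among the lower genes, Serpine2 was at -1.03, read in row or column 1 from the edge. Further lower genes were Col1a1 at -1.28, Ltbp1 at -1.78 (other probes, -0.56), Tspan15 at -1.10 (other probes, -0.17) and Btc at -1.15 ± 0.37. The Btc probe lay in row or column 5 from the edge. Its signal of 15.2 with calcitriol is close to the lowest called well above background on that array (13.82). Versican (Vcan), a substrate of Adamts1 and Adamts9, was at -0.97 with calcitriol and -0.80 with calcidiol. The remaining measured matrix substrates went both ways with calcitriol. Lama5 was at 0.40, Thbs1 at 0.39 (other probe, -0.31), Fn1 at 0.14 (other probes, -0.04), Col4a1 at -0.48 and Col4a2 at -0.23. Furin and the Adam17 partners Rhbdf1 and Rhbdf2 were level, at 0.01, 0.02 and -0.08 with calcitriol.

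Markers of other cell types differed between the arrays too. Of 7 fibroblast markers, Col1a1, Dcn and Postn were well above background and all 3 were at least 2-fold lower with calcitriol than with vehicle, while Pdgfra, Pdgfrb, Col1a2 and Thy1 were not on any array. The summed signal of the list was 420 with calcitriol, 965 with calcidiol and 2065 with vehicle. Most of it came from Postn, which had 272 with calcitriol, 707 with calcidiol and 1647 with vehicle. Of 3 proximal tubule markers, Lrp2 and Cubn were well above background. Lrp2 had 5090.2 with calcitriol, 3812 with calcidiol and 1923 with vehicle, 1.37 above vehicle with calcitriol (other probes, 0.79) and 0.88 with calcidiol. Cubn was at -0.18 with calcitriol. The summed signal of that list, nearly all of it from Lrp2, was 5229 with calcitriol, 3976 with calcidiol and 2077 with vehicle. Kdr, the detected marker of 4 for endothelium, was at -0.86 with calcitriol. The part of these markers in the differences of the proteases, Adamtsl4 and the substrates was not tested.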

How the data were processed

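The authors deposited scanner files that hold each spot's intensity, in linear units, for 3 Agilent mouse arrays. Per the file headers, Feature Extraction 10.7.1.1 subtracted background and placed probes on mm9, and all arrays shared 1 slide barcode and 1 scan date. Per the submitters' processing notes the Feature Extraction version was 9.5.1.1. The authors also deposited a table of normalised intensity, with a log2 median of 3.71 in every column and a linear scale by comparison with the scanner files. It served as an alternative, its tool not given in the sources used here.

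Control spots and probes with an outlier flag on any array (1489 of 56605 probes) were left out, and from the log2 signals the 75th percentile of the array was subtracted (379.8 with calcitriol, 400.8 with calcidiol and 371.1 with vehicle). No test was run. Sizes of 2-fold describe genes. The number of arrays limits the precision. The members and gene lists were chosen with earlier results of these data known. Values are given for the inhibitors, the 10 brightest genes, those at least 1.5-fold apart in any comparison or with a bound of at least 2-fold, the 3 highest and lowest of each comparison and a set of well-known proteases, with other genes named by detection. Promoters were searched in RefSeq (GRCm38.p6), and all 85 symbols matched its gene table. A gene of the wider list is not reported here. The alternatives changed the centring, normalization, background correction, offset, filters, probe rule, value source, edge spots and size threshold. The tools were Python 3.11.15 (numpy 2.4.6, pandas 2.3.3, matplotlib 3.10.9) and, for normexp, R 4.3.3 (limma 3.58.1).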

Additional observations from a re-analysis of the deposited data

How the results depend on the processing

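No paired analysis was possible because each group has 1 array, and no replicate could be left out. The number of genes at least 2-fold higher with calcitriol than with vehicle (3) was 4 with the array median as the centre. It was also 4 where 1 array well above background was enough, and 2 without genes under the 25th percentile of signal. It was 1 with normexp background correction and quantile normalization, 1 with an offset of 32, 6 at 1.5-fold and 0 at 3-fold. The number lower (1) was 0 with the array median as the centre, 2 where 1 array well above background was enough, 5 at 1.5-fold and 0 at 3-fold. For calcidiol against vehicle, 0 higher became 1 with quantile normalization, with the looser filter and with the mean over probes, and 2 at 1.5-fold, and 0 lower became 1 at 1.5-fold. For calcitriol against calcidiol, 1 higher became 2 with the array median and with the looser filter, 3 at 1.5-fold, and 0 with normexp, the offset, a filter at the 25th percentile of signal or 3-fold. The 1 lower became 2 with the looser filter, 4 at 1.5-fold, and 0 with normexp, the 25th percentile filter or 3-fold.

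With the array median as the centre, the median over all genes shifted by 0.12 for calcitriol against vehicle, -0.06 for calcidiol against vehicle and 0.18 for calcitriol against calcidiol. The medians of the 28 genes then were -0.0297 for calcitriol against vehicle (-0.15 otherwise) and 0.0796 for calcitriol against calcidiol (-0.11 otherwise), so the sign of the second depends on the scaling. The share of higher genes among all genes at least 2-fold apart was 54.93% in place of 37.27% for calcitriol against vehicle, and 50% in place of 24.92% for calcitriol against calcidiol.

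By gene, calcitriol against vehicle stayed at least 2-fold for Adamtsl4 in 9 of 10 settings (-1.23 to -0.98), for Adamtsl5 in 8 of 10 (0.88 to 1.57) and for Adamts6 in 7 of 9 (0.35 to 1.29). Mmp19 stayed at least 2-fold lower with calcitriol than with calcidiol in 8 of 9 settings (-1.44 to -0.78). Of 693 differences of named genes under another setting, 661 moved by no more than their technical error and 32 moved by more. Among the differences at least 2-fold, 0 changed direction. Settings that only change which spots or genes are kept often leave a gene's value as it was, so these counts of settings overstate stability. Without the outermost 6 rows and columns 26 genes were left, Adamts1 and Adamts16 being dropped, and the counts at 2-fold were as before. The genes at least 2-fold apart were all read from other spots, so this setting could not change their counts. Genes near background, such as Adamts6 at 21.4 with vehicle, rest on signals close to the lowest called well above background (13.82, 17.85 and 13.36 for calcitriol, calcidiol and vehicle). The cause of these shifts was not tested.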

Other observations

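A few genes gave a signal from a single probe on the calcidiol array alone. Adamts12, a relative of Adamts7, had 2.98 with calcitriol, 19.7 with calcidiol and 2.84 with vehicle from its brightest probe, while its other probes stayed below 4 on every array. One probe of Adamts18 had 2.87 with calcitriol, 27.6 with calcidiol and 2.75 with vehicle, and its other probes were not well above background. Each is a single spot on a single array, and a further probe does not show it.

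Notch1, a receptor that Adam10 and Adam17 cleave, had 576 with calcitriol, 937 with calcidiol and 478 with vehicle, 0.86 above vehicle with calcidiol and 0.24 with calcitriol. Hbegf, a growth factor that Adam17 sheds, had 547 with calcitriol, 711 with calcidiol and 866 with vehicle. Of 5 leukocyte markers 4 were well above background on all arrays, Ptprc, Cd68, Csf1r and Itgam, in a culture labelled as a tubule line, and of 4 endothelial markers Kdr was.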
